A study of Mus musculus with 80 samples.

Results

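The libraries examined here are those of fed mouse liver taken at the circadian times (CT) that were sampled on each of 2 successive days of constant darkness. They are every library titled control at CT8, CT12, CT16 and CT20 (first day) and at CT32, CT36, CT40 and CT44 (second day), which makes 32 of the 80 libraries of the series, 16 from each day. CT counts hours from the subjective dawn of the first day in darkness, so each second-day time lies 24 h after its first-day partner. The mice were C57BL/6J of both sexes, 8 to 12 weeks old, housed 4 to a cage with standard chow always available. They lived in 12 h of light and 12 h of dark for 10 days, then in constant darkness on day 11 and until they were killed under dim red light. Each time is represented by 2 males and 2 females. Both days share strain, diet, tissue (the left lobe of the liver) and library kind (stranded, polyadenylated RNA, paired reads of 76 bases), and they differ in the time spent in darkness. The wider series sets such mice beside fasted ones in order to follow transcription and splicing across the clock, and the comparison of days in fed mice asks how far liver transcripts drift from one cycle to the next without any fast. The same fit was repeated without CT8 and CT32, which left 24 libraries.

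The mammalian clock is a feedback loop of transcription. BMAL1 pairs with CLOCK or NPAS2 and activates genes that carry an E-box (CACGTG), among them the Per and Cry genes, whose proteins then block their own activators. The nuclear receptors REV-ERB (Nr1d1, Nr1d2) and ROR (such as Rora) close a further loop by repressing and activating Bmal1, and DBP, TEF, HLF and NFIL3 pass the rhythm on through D-boxes. In constant darkness the loop free-runs, while in the liver the daily meal rhythm also sets the timing of lipid, bile acid and methyl metabolism. The methyl cycle, in which BHMT and methionine synthase re-form methionine from homocysteine, is itself among the rhythmic liver pathways.

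The promoters of 3 clock genes whose transcripts are followed below are shown because they carry the elements through which the loop acts. Each is the stretch from 250 bases before to 50 bases after the annotated start, from RefSeq on build GRCm38.p6, written 5′ to 3′ on the strand of the gene. The count table itself uses GRCm39, so these coordinates were not set against it. Capitals mark a perfect E-box (CACGTG) or D-box (TTATGTAA, searched on both strands like the E-box). Ciart, which encodes a repressor of the clock, lies at chr3:95882179-95882478 on the minus strand, Per1 at chr11:69098699-69098998 on the plus strand and Per3 at chr4:151044616-151044915 on the minus strand.
Ciart: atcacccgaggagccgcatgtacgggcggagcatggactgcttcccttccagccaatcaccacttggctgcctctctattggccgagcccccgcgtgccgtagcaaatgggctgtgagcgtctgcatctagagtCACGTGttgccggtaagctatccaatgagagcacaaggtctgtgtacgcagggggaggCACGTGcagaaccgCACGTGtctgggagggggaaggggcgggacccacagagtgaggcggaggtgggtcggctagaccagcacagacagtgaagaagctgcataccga
Per1: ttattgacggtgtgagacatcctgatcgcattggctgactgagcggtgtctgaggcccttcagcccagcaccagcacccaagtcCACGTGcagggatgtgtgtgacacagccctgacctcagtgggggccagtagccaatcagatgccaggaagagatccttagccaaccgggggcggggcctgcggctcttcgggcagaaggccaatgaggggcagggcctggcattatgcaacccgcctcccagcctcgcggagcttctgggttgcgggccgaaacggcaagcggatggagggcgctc
Per3: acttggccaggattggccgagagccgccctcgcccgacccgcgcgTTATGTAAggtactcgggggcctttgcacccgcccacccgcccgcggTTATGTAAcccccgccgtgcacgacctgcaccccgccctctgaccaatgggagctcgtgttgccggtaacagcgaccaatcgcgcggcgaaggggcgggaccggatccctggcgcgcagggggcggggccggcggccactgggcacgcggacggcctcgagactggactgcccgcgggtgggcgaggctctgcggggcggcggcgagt
The E-box occurs 3 times in the Ciart window and once in that of Per1, and the Per3 window holds 2 D-boxes. Over 32851 promoters of the same length, 7.15% held the E-box and 0.938% the D-box. Of the 12 core clock genes, 10 had a promoter entry, 2 with the E-box and 1 with the D-box, and of the 7 output factors 6 had one, 3 with the E-box. A match describes these letters and is not a measured binding site.

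Total counts per library ran from 25534901 to 59927771 and averaged 42693992 ± 7078087 on the first day and 43122817 ± 7009736 on the second (SD, n = 16 each). The difference of 428825 counts lay within that spread (two-sided permutation test, p = 0.862). Xist stood at 1016 to 1435 CPM (the gene's count scaled to the library's total) in the libraries titled female and at most 2.08 CPM in those titled male, and Ddx3y at 59.8 to 91.6 CPM in males and at most 0.243 CPM in females, so that the levels matched the sex in every title. The treatment entry in the labels contradicted the title for 16 of the 32 libraries, and the groups here follow the titles. CT8 female 2 stood apart. The ribosomal transcript Rn18s-rs5 took 31.3% of its counts against at most 1.40% elsewhere, and its summed lymphocyte markers reached 222 CPM against at most 37.0 CPM in the other first-day libraries and 24.6 CPM on the second day. Its cell cycle transcripts summed to 1000 CPM against at most 372 CPM in the remaining 31. The tests of CT32 against CT8 and of the change from CT8 to CT20 are therefore given with and without it, while the CT8 means of single genes include it. CT36 male 1 and CT40 male 1 also stood apart, for acute phase transcripts described below. The hepatocyte markers, albumin among them, summed to between 87570 and 133800 CPM in all 32 libraries.

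Across the 32 libraries no transcript passed the test of the second day against the first. The test was edgeR's quasi-likelihood test with a mean for each phase and sex and a single term for day, and 0 of 18836 genes passed at a Benjamini-Hochberg adjusted p under 0.05 (0% called), the smallest adjusted p being 0.378. At an unadjusted p under 0.05 there were 1628 genes, 858 with higher and 770 with lower estimates on the second day (4.56% and 4.09% of those tested). By other tools, limma-voom called 1 gene (Moxd1) and DESeq2 called 2 (Cpt2 and H2bc4). Since a missed threshold does not show that values are equal, the intervals matter more. For 93.1% of the genes the 95% interval of the day change lay within 2-fold, and for 76.7% within 1.5-fold. For the 11897 genes whose mean log2 level was 1 or more, these shares were 98.8% and 95.3%. An estimate beyond 2-fold was found for 103 genes, 17 of them in that higher-level set. The p-values measure the spread of the libraries around a mean for each phase and sex plus 1 shared day change. That spread also holds any day change that differed between phases or sexes.

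The clock genes followed a like course on both days. Of the 12 core clock genes, 0 passed for day and 0 had an unadjusted p under 0.05, against 8.64% of all genes, and their changes ran from −0.16 to +0.33 on the log2 scale with a median of 0.04. Among the 7 output factors, Nfil3, which represses at D-boxes, was 1 with a higher estimate at that threshold, which 4.56% of all genes reached (+0.19, SE 0.093, adjusted p = 0.573). All 19 intervals lay within 2-fold, and 17 of them within 1.5-fold. Of the activators, Bmal1 averaged 1.71 ± 1.29 CPM at CT8 and 1.46 ± 0.279 CPM at CT32, then 38.6 ± 1.11 CPM at CT20 and 34.5 ± 2.82 CPM at CT44 (SD, n = 4). Trough and peak thus fell at the same phase on both days, and the ranges of the 2 days met at each. The day change of Bmal1 was +0.04 and that of its partner Clock +0.10 (SE 0.056). Npas2, the other partner, had the largest estimate of the 12, +0.33, and moved from 0.170 ± 0.0227 CPM at CT8 to 10.6 ± 5.70 CPM at CT20 on the first day. On the second it moved from 0.285 ± 0.236 CPM at CT32 to 10.4 ± 3.53 CPM at CT44, so the late levels differed by less than their spread.

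Of the repressors, Per2 averaged 107 ± 33.5 CPM at CT16 and 113 ± 29.9 CPM at CT40, its highest time on either day. At CT20 it stood at 60.9 ± 25.7 CPM and at CT44 at 43.5 ± 14.0 CPM, which is the point where the days were farthest apart (−0.48, SE 0.175, adjusted p = 0.393). Per3 averaged 16.7 ± 3.77 CPM at CT20 and 12.8 ± 4.18 CPM at CT44, and its day change was −0.16 with CT8 and CT32 and −0.28 (SE 0.103, adjusted p = 0.608) without them. Cry1 stood at 54.9 ± 1.70 CPM at CT20 and 50.6 ± 3.86 CPM at CT44. Its 2 troughs, at CT8 and CT32, were 7.47 ± 2.62 and 6.59 ± 2.01 CPM. None of these differences passed the test. In the fit without CT8 and CT32, 2 of the 12 core clock genes, Per3 among them, and 1 of the 7 output factors, the D-box activator Tef, had lower estimates at an unadjusted p under 0.05, as did 3.39% of all genes. None had a higher estimate at that threshold, which 3.44% of all genes reached.

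Nr1d1, the REV-ERBα gene, had the smallest p of the core clock (+0.30, SE 0.157, adjusted p = 0.594). It averaged 121 ± 43.6 CPM at CT8 and 165 ± 58.9 CPM at CT32, and fell to 2.59 ± 1.37 CPM at CT20 and 3.45 ± 0.762 CPM at CT44. Dbp, the D-box activator, fell from 188 ± 31.4 to 4.13 ± 0.446 CPM over the first day and from 216 ± 12.8 to 3.28 ± 1.05 CPM over the second. Both genes dropped by over 5 log2 units on each day, while the days differed by less than 1 at every phase.

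**Figure D1:**
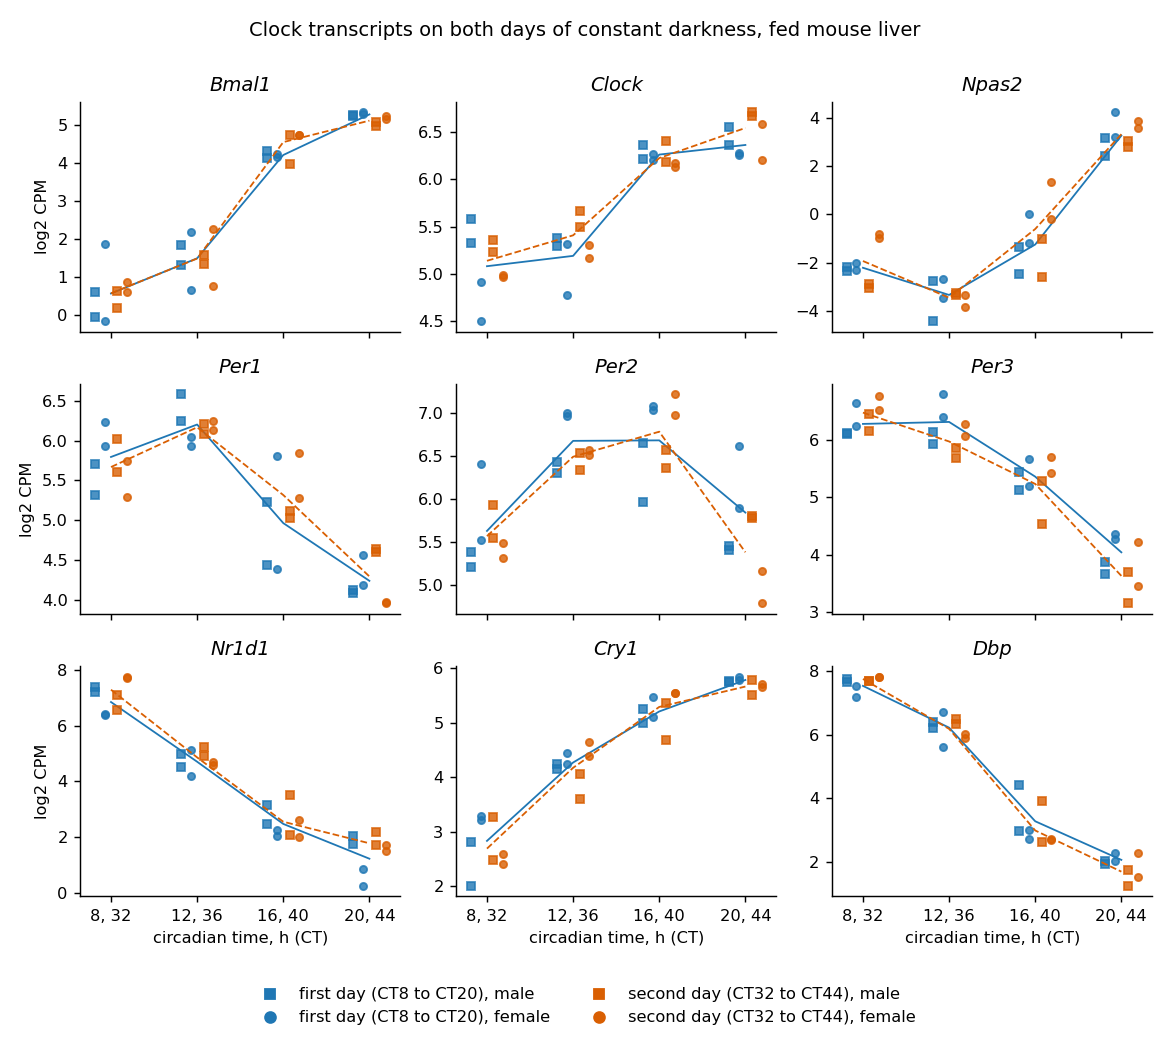
Level of 9 clock genes (log2 CPM) in each of the 32 libraries against circadian time, first day with solid and second day with dashed lines through the means of 4 libraries, squares for males and circles for females. The 2 lines run together in every panel; for Bmal1 both rise from under 3 CPM at CT12 and CT36 to 38.6 CPM at CT20 and 34.5 CPM at CT44.

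The height of the rhythm was compared as the difference between the highest and the lowest of the 4 phases. Its median over the 19 genes was 2.17 log2 units on the first day and 2.02 on the second, and it was larger on the second day for 11 of the 19. The highest phase was the same on both days for 14 genes and the lowest for 15. Without CT8 female 2 the medians were 2.08 and 2.02, the range was larger on the second day for 9 of the 19, and the highest and the lowest phase were shared by 15 and 14. For Nr1d1 the range was 5.62 and 5.51, for Bmal1 4.71 and 4.54, for Dbp 5.48 and 6.07, and for Ciart 4.00 and 4.88. These are descriptions at 4 h spacing, so the highest and the lowest phase can miss a shift in timing of less than that interval. Such smaller shifts were not tested. Each phase mean rests on 4 livers. No single-phase change of a clock gene passed the test, the largest being that of Npas2 between CT16 and CT40 (+0.80, SE 0.456, adjusted p = 0.807).

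A further comparison used only the change within a day, drawn from the same libraries and fit as the single-phase changes. Between CT8 and CT20, 3407 of 19807 genes passed (17.2%), and between CT32 and CT44 2349 passed (11.9%). The 2 contrasts share no library. Of the 19 clock genes, 16 passed on each day, 15 of them on both and all 15 in the same direction. Across the 19 genes the changes had a Pearson r of 0.995. The changes spanned a wide range, so this r says little about small differences between the days. Nr1d1 fell by 5.62 on the log2 scale on the first day and by 5.53 on the second, and Per3 fell by 2.25 and by 2.83. Over all genes 1415 passed on both days, which is 41.5% of the first list and 60.2% of the second, 1408 of them in the same direction. The correlation across 19807 genes was weaker (r = 0.439), and across the 4341 genes called on either day it was 0.701; genes are not independent replicates. Without CT8 female 2, an alternative chosen after seeing the data, 2992 of 20821 genes passed between CT8 and CT20 (14.4%) and 2779 between CT32 and CT44 (13.3%), with 1492 on both days. The clock genes again gave 16 calls on each day and 15 on both, all 15 in the same direction, with r = 0.993.

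**Figure D2:**
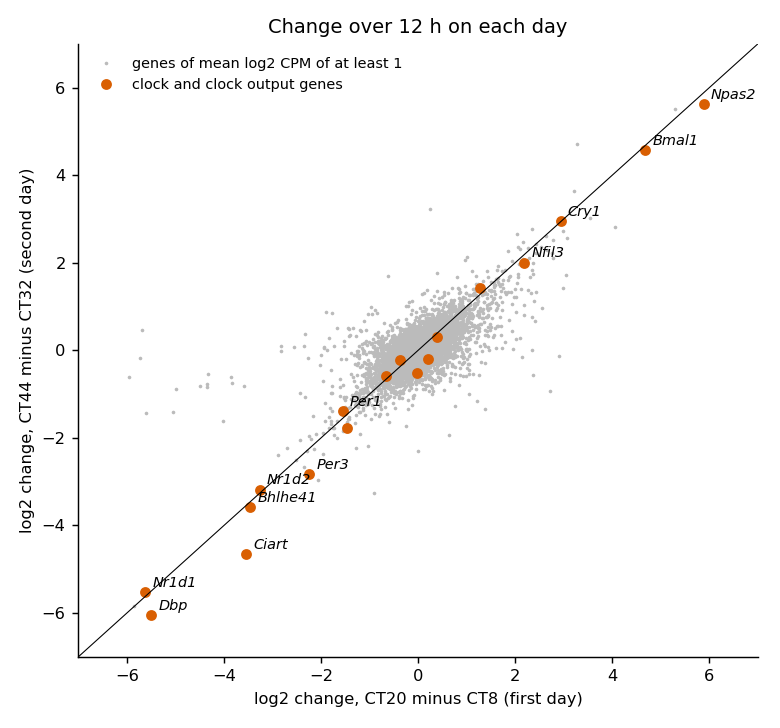
Log2 change from CT8 to CT20 (x axis) against that from CT32 to CT44 (y axis), with grey points for genes whose mean log2 level was 1 or more and orange points for clock and output genes; the line marks equality. The clock genes lie along the line from Dbp and Nr1d1 at the lower left, below −5 on both axes, to Bmal1 and Npas2 at the upper right.

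Enzymes of one-carbon metabolism supply methyl groups through folate, methionine and betaine. Of 31 tested, 3 had higher and 2 lower estimates on the second day at an unadjusted p under 0.05, against 4.56% and 4.09% of all genes, and the median change was +0.03. Without CT8 and CT32 the counts were 1 and 2 and the median −0.01. Dmgdh, which oxidises dimethylglycine in the mitochondrion, ranged from 302 through a median of 591 to 760 CPM over the 16 first-day libraries and from 466 through 655 to 792 CPM on the second (+0.25, SE 0.098, adjusted p = 0.527). Aldh1l2, the mitochondrial formyltetrahydrofolate dehydrogenase, was near the floor, with medians of 0.508 and 0.336 CPM (−0.47, SE 0.172, adjusted p = 0.505). Bhmt, which transfers a methyl group from betaine to homocysteine, had an estimate of +0.36 with CT8 and CT32 and of 0.01 (SE 0.155) without them. The interval of the day change lay within 2-fold for 30 of the 31 enzymes.

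**Figure D3:**
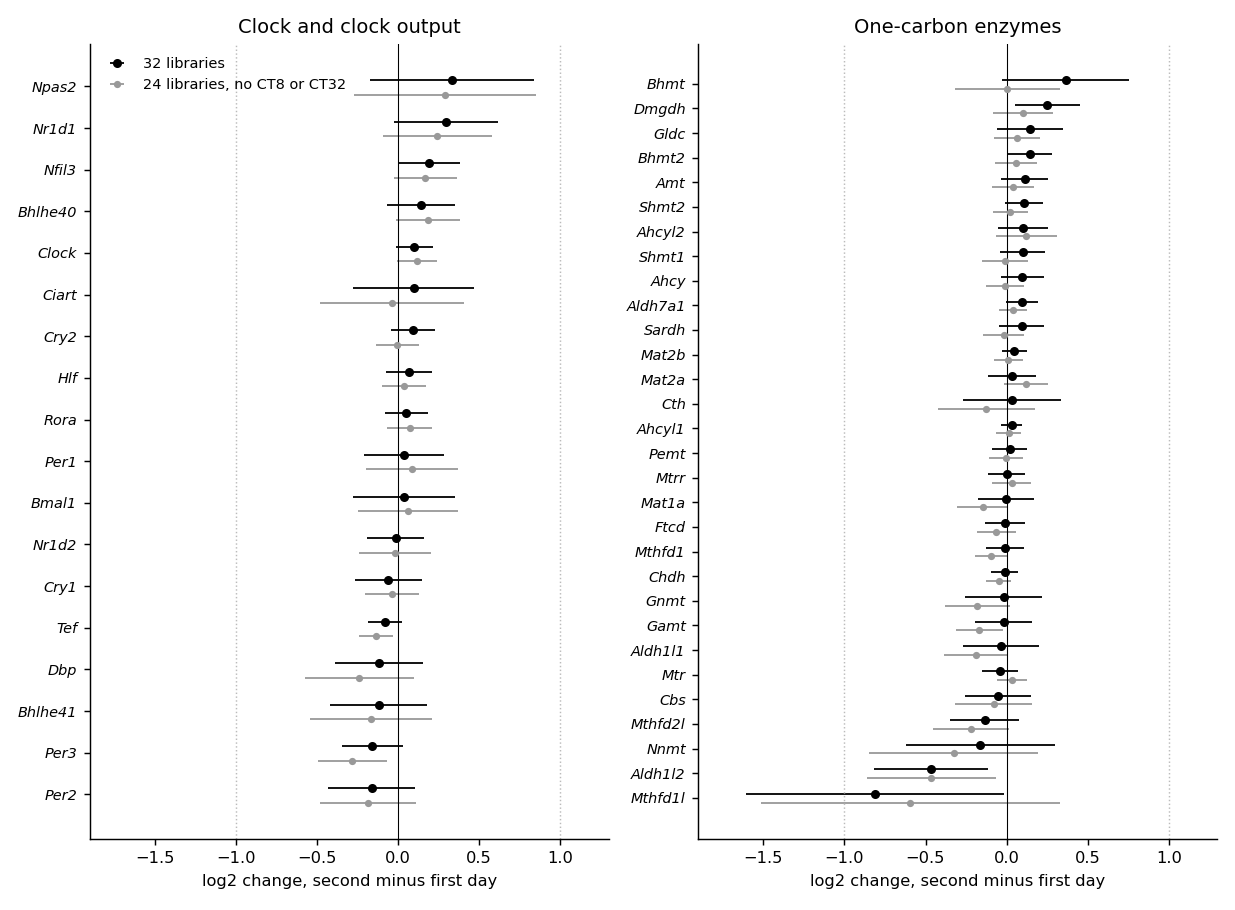
Estimated log2 change from the first to the second day (x axis; 95% interval as a bar) for 18 clock and output genes (left) and 30 one-carbon enzymes (right), black from 32 libraries and grey from the 24 without CT8 and CT32; dotted lines mark 2-fold. Every clock interval in black stays between the dotted lines, and the bar of Mthfd1l reaches farthest to the left among the enzymes.

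The 10 genes with the smallest p for day were named after their values were seen. Cpt2, which takes part in moving long-chain fatty acids into the mitochondrial matrix, ranged from 77.9 through a median of 128 to 158 CPM on the first day and from 106 through 148 to 177 CPM on the second. Its estimate was higher at all 4 phases (+0.23, SE 0.045, adjusted p = 0.378), though the days overlapped over most of the range. H2bc4, a histone gene, had a like change of +0.25 (SE 0.052), and Acy3 of +0.27. Tusc3, a subunit of the oligosaccharide transfer machinery, was on the lower side (−0.29) at 8.11 and 6.37 CPM in the median. Cyp7b1, an oxysterol hydroxylase of bile acid synthesis with higher levels in males, ranged from 217 to 487 CPM in first-day males and from 365 to 679 CPM in second-day males. In females it lay between 15.1 and 29.6 CPM and between 17.1 and 30.5 CPM, so that the estimate of +0.40 (SE 0.096, adjusted p = 0.380) came with overlap in both sexes. The other 5 were Snap47, Cyp2a12, Ccn1, Atat1 and Pdp2, all with higher estimates on the second day, from +0.19 to +0.45.

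Genes of lipid and sterol supply were described by list, each count being at an unadjusted p under 0.05. Of all genes, 4.56% were higher and 4.09% lower there, and without CT8 and CT32 3.44% and 3.39%. No listed gene had an adjusted p under 0.05. Of 19 lipogenic genes, 0 had higher and 3 lower estimates, with a median of −0.21, and without CT8 and CT32 the counts were 0 and 6 with a median of −0.38. They were led by Pnpla3, a lipid droplet protein (−0.996, SE 0.438), by Acly, which makes cytosolic acetyl-CoA (−0.51, SE 0.234), and by Acaca, the first committed enzyme of fatty acid synthesis (−0.28, SE 0.136). Acly ranged from 314 through 748 to 3164 CPM on the first day and from 326 through 555 to 1223 CPM on the second, with the highest value of each day in a female. The ranges overlapped. Of 24 cholesterol synthesis genes, 5 had higher and 0 lower estimates (median +0.12), led by Hsd17b7 (+0.27) and Cyp51 (+0.26), but without CT8 and CT32 the counts were 0 and 0 and the median −0.02. Of 16 bile acid genes, 3 were higher, namely Cyp7b1, the phospholipid exporter Abcb4 (+0.22, SE 0.077) and Hsd3b7 (+0.16). Of 20 genes that fasting induces, 2 were higher, Cyp4a10 (+0.62, SE 0.218), a fatty acid hydroxylase, and Creb3l3 (+0.17, SE 0.061), a transcription factor of the fasting response. Their days overlapped as well, with Cyp4a10 between 81.6 and 837 CPM and then between 64.8 and 1123 CPM. Without CT8 and CT32 the bile acid list held 2 higher members and the fasting list 1, with 0 lower in each.

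Zonation and detoxification genes were counted in the same way, at an unadjusted p under 0.05. Of all genes, 4.56% had higher and 4.09% lower estimates there, and without CT8 and CT32 3.44% and 3.39%. Of 18 pericentral genes, which are expressed around the central vein, 6 had higher and 0 lower estimates (median +0.18). Glul, which fixes ammonia in glutamine, ranged from 361 through 769 to 954 CPM and then from 485 through 878 to 1169 CPM (+0.33, SE 0.122, adjusted p = 0.511). The glutamate transporter Slc1a2 (+0.22, SE 0.064) and the ammonia transporter Rhbg (+0.47, SE 0.143) pointed the same way, and without CT8 and CT32 the count was 1. Of 17 periportal genes 1 was higher, Cyp2f2 (+0.18), and 0 were lower (median −0.06), but without CT8 and CT32 the counts were 1 and 4 (median −0.09). Of 31 drug-metabolizing CYP genes, 6 were higher and 1, Cyp2a4, was lower (−0.77, SE 0.201), which became 3 and 1 without CT8 and CT32. Cyp2a4, a steroid hydroxylase, stood at 609 to 1455 CPM in first-day and 417 to 1356 CPM in second-day females, and at 1.73 to 16.8 CPM and 1.58 to 4.01 CPM in males. Cyp2a genes are close copies of each other, so their reads can be split between them. Among the urea cycle and amino acid genes 2 of 28 were higher, among the heme and iron genes 3 of 21, and among the sex-biased and growth hormone genes 1 of 21, with 0 lower in each. Without CT8 and CT32 the urea cycle and amino acid list turned to 1 higher and 4 lower (median −0.11) and the heme and iron list to 0 higher and 1 lower, while the sex-biased list kept a count of 1 and 0.

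Among the signalling and stress genes, the counts at an unadjusted p under 0.05 were on the lower side or at 0. The mitochondrially encoded transcripts, counted with them, held members on both sides. Over all genes 4.56% were higher and 4.09% lower, and without CT8 and CT32 3.44% and 3.39%. Egr1, an immediate early transcription factor, ranged from 2.19 through a median of 21.4 to 62.4 CPM on the first day and from 2.63 through 8.37 to 16.9 CPM on the second. All 16 second-day libraries lay below the first-day median, within the range of that day (−1.30, SE 0.374, adjusted p = 0.433). Atf3, a stress-induced factor, was the other of 16 immediate early genes with a lower estimate (−0.48, SE 0.213). Of 22 interferon-stimulated genes 4 were lower, led by the antiviral GTPase Mx1 (−0.34, SE 0.116), and 3 were lower without CT8 and CT32. Of 18 NRF2 targets 1 was lower, G6pdx (−0.49). The glucocorticoid targets, heat shock genes, endoplasmic reticulum chaperones and glycogen and glucose genes held 0 members at an unadjusted p under 0.05 out of 14, 17, 20 and 19. Without CT8 and CT32, 1 member each of the glucocorticoid, heat shock and glycogen lists was lower. Of 13 mitochondrially encoded transcripts 2 were higher and 1, mt-Nd6, was lower (−0.25, SE 0.072); mt-Nd6 is encoded on the opposite strand from most of its neighbours. Of 16 methyltransferases and demethylases 1 was lower, Cmtr2 (−0.17). In the fit without CT8 and CT32, 1 immediate early gene was lower, and 0 NRF2 targets and 0 methyltransferases and demethylases. The mitochondrially encoded list there held 1 higher and 1 lower member.

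Cell type markers and proliferation genes were followed because whole tissue was sequenced, where fewer cells of a type and less RNA per cell cannot be told apart. The hepatocyte, Kupffer cell, endothelial, cholangiocyte and red blood cell markers held 0 of 8, 10, 9, 7 and 6 tested members at an unadjusted p under 0.05, and the stellate markers 1 of 9 (Acta2, +0.34). Of 11 lymphocyte markers, 7 had lower and 0 higher estimates on the second day at that threshold (median −0.67), against 4.09% and 4.56% of all genes. Over 51 other settings the count of lower markers ran from 1 to 10, and 46 of these counts were within 1.5 times of 7. Levels were low. The B cell antigen Cd79b ranged from 0.503 through 1.27 to 2.65 CPM on the first day and from 0.509 through 0.757 to 1.75 CPM on the second (−0.53, SE 0.171, adjusted p = 0.465). Ms4a1, another B cell gene, gave −0.67 (SE 0.206). Without CT8 and CT32 the list held 5 lower members with a median of −0.49, where 3.39% of all genes were lower. The summed lymphocyte markers ran from 8.67 to 37.0 CPM on the first day, CT8 female 2 aside, and from 7.51 to 24.6 CPM on the second. Of 26 cell cycle genes 5 were lower (median −0.47), and without CT8 and CT32 the count was 0 with a median of −0.12. Neutrophil markers summed to at most 7.27 CPM and acinar markers to at most 37.7 CPM, and only 4 of 8 and 2 of 9 could be tested. S100a9, a neutrophil protein, was at most 2.28 CPM. Cfd, the adipocyte protein adipsin, was at most 2.54 CPM and was the 1 of 4 tested adipocyte and mesothelial markers with a higher estimate (+2.05, SE 0.588, adjusted p = 0.433). Whether the number of blood cells left in the tissue had a part in the lymphocyte difference was not tested.

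At the single phases, calls were found for one pair alone. Between CT8 and CT32, 175 of 19807 genes passed (edgeR quasi-likelihood, adjusted p under 0.05), 56 higher at CT32 (0.283%) and 119 lower (0.601%), beside 4019 at an unadjusted p under 0.05. Of the listed genes, 7 cell cycle and 1 lymphocyte member were among the lower and 2 one-carbon, 3 cholesterol and 2 bile acid members among the higher. CT12 against CT36, CT16 against CT40 and CT20 against CT44 gave 0 calls each, with 1520, 1275 and 1962 genes at an unadjusted p under 0.05, and DESeq2 called 10, 1 and 23.

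The largest falls at CT32 were in genes of dividing cells and T cells, and their size depended on CT8 female 2. Mki67, a marker of cycling cells, stood at 5.44 and 11.1 CPM in the CT8 males, 4.48 and 146 CPM in the CT8 females, and 2.95, 1.56, 2.77 and 1.41 CPM at CT32 (−3.50, SE 0.629, adjusted p = 0.021). The 146 CPM is CT8 female 2, yet the other CT8 libraries also lay above all 4 at CT32. Top2a, a DNA topoisomerase of cycling cells, gave 92.6 CPM in that library against 2.44 to 5.30 CPM in the others at CT8. Thy1, a T cell surface protein, gave 134 CPM against 1.10, 2.38 and 2.00 CPM, and 0.856 to 1.80 CPM at CT32. With that library left out, Mki67 changed by −1.48 (adjusted p = 0.0891) and Thy1 by −0.52 (adjusted p = 0.519), neither of which passed. Of the 26 cell cycle genes, 9 still had lower and 0 higher estimates at an unadjusted p under 0.05 (median −0.51), against 6.59% lower and 5.72% higher over all genes in that fit, and 0 passed. Ccna2, a cyclin of S phase and the entry into mitosis, gave −1.71 (SE 0.375, adjusted p = 0.0699). Kif23, a kinesin of cell division outside the list and named after its values were seen, passed (−1.58, SE 0.313, adjusted p = 0.0482). Of the 11 lymphocyte markers 0 were lower or higher at that threshold (median −0.35).

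The largest rises at CT32 were in hepatocyte enzymes. Bhmt stood at 1398, 1424 and 1224 CPM in CT8 male 1, male 2 and female 1, at 569 CPM in CT8 female 2, and at 3243, 2534, 2883 and 4032 CPM at CT32. The 4 CT32 livers all lay above the 4 CT8 livers (+1.49, SE 0.276, adjusted p = 0.0255). Bhmt1b, whose sequence is close to that of Bhmt so that reads may be shared, gave +1.53 (SE 0.259). Cyp8b1, the sterol 12-alpha-hydroxylase that sets the share of cholic acid among bile acids, stood at 282 and 340 CPM in the CT8 males and 105 and 110 CPM in the CT8 females. At CT32 it stood at 627 and 398 CPM in males and 286 and 314 CPM in females, so it was higher within each sex (+1.10, SE 0.215, adjusted p = 0.0294). Without CT8 female 2 the changes of Bhmt and Cyp8b1 were +1.26 and +1.12, both with an adjusted p of 0.0787. Dmgdh rose by 0.70 (SE 0.160) at CT32, and 3 cholesterol synthesis genes rose as well, Idi1 by 0.77, Hsd17b7 by 0.72 and Tm7sf2 by 0.53. Without CT8 female 2 none of these passed: Bhmt1b gave +1.33 (adjusted p = 0.0609), Dmgdh +0.56 (adjusted p = 0.172), Idi1 +0.78 (adjusted p = 0.138), Hsd17b7 +0.68 (adjusted p = 0.0606) and Tm7sf2 +0.42 (adjusted p = 0.0675). As a list the 24 cholesterol genes had a median of +0.61 at this pair and of +0.59 without CT8 female 2, against +0.00 over all genes in that fit.

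**Figure D4:**
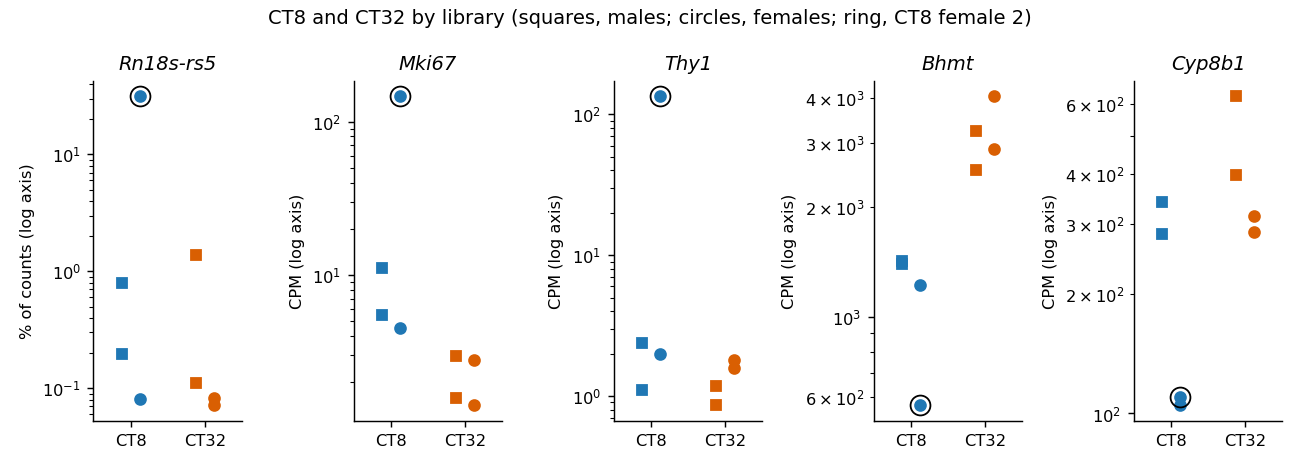
Share of counts from Rn18s-rs5 (first panel, % on a log axis) and levels of Mki67, Thy1, Bhmt and Cyp8b1 (CPM on log axes) in the 4 CT8 and 4 CT32 libraries, squares for males, circles for females, with a ring round CT8 female 2. The ringed library is far above the rest for Rn18s-rs5 at 31.3%, Mki67 at 146 CPM and Thy1 at 134 CPM, while Bhmt separates CT8 from CT32 in every library.

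Without CT8 female 2 the comparison gave 29 calls, 8 higher and 21 lower, of which 14 were among the 175. All 175 kept their sign, and the median size of their change went from 0.74 to 0.60 log2 units. The 175 were chosen in a fit that shares all its other libraries with this one, so the kept signs were largely fixed in advance. Leaving out CT8 female 1 instead, so that CT8 female 2 was the lone CT8 female, gave 3097 calls, and leaving out CT8 male 2, CT32 male 1 or CT32 male 2 gave 0. Leaving out CT32 female 1 or CT32 female 2 gave 3 and 4. The number of calls at this pair therefore depended on single livers.

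With CT8 and CT32 left out, 1 of 18515 genes (0.0054%) passed, beside 1264 at an unadjusted p under 0.05. This was Moxd1, a monooxygenase-like protein of the endoplasmic reticulum, with +5.29 (SE 0.761, adjusted p = 0.0298). In first-day males its level was 0.233 and 3.36 CPM at CT8, 1.17 and 0.0655 CPM at CT12, 0.369 and 1.08 CPM at CT16, and 1.16 and 4.06 CPM at CT20. In second-day males it was 0.202 and 0.295 CPM at CT32, 99.1 and 34.0 CPM at CT36, 150 and 12.4 CPM at CT40, and 12.6 and 31.6 CPM at CT44. All 6 males from CT36 on thus lay above all 8 first-day males and both CT32 males, whereas the 16 females lay at 0 to 0.208 CPM on both days. In the other fed males, Moxd1 reached 0.930 and 0.0788 CPM at CT24 and 5.05 and 0.267 at CT28. In the fasted males it ranged from 0 to 59.4 CPM, with 44.7 in 1 male at CT32 and 0.468 in the other. High single males thus also occurred among the fasted, at CT32 or earlier. From CT36 on, the fasted males all lay below the 6 fed males. They stood at 0 and 0.0496 CPM at CT36, 0.474 and 0.121 CPM at CT40, and 0 and 1.79 CPM at CT44. The difference between the diets was not tested. Moxd1 did not pass with the replicate block (adjusted p = 0.119) or with DESeq2 (adjusted p = 0.107).

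**Figure D5:**
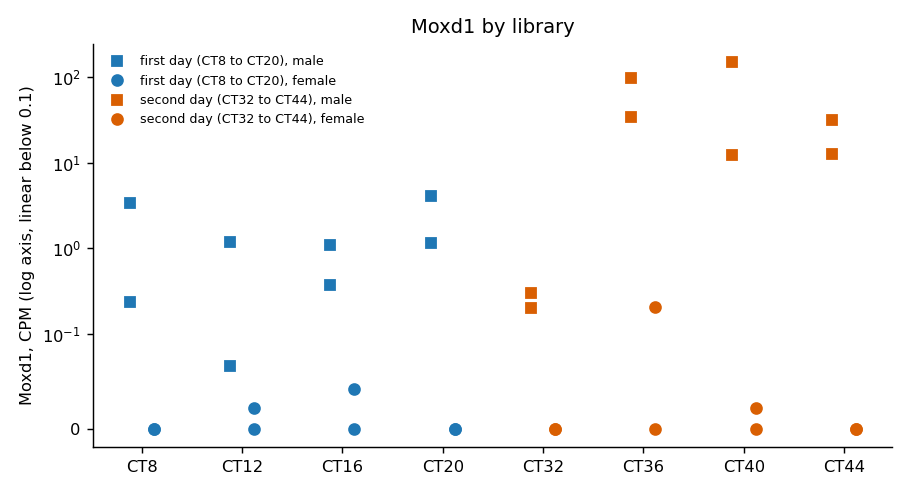
Moxd1 level (CPM, log axis that is linear below 0.1) in each of the 32 libraries by circadian time, squares for males and circles for females, first day and second day in separate colours. The 6 males at CT36, CT40 and CT44 sit between 12.4 and 150 CPM, above every other library.

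The 2 libraries with the most Moxd1, CT36 male 1 and CT40 male 1, were also those with the most acute phase transcripts, which the liver makes in inflammation. Saa1, a serum amyloid, stood at 5514 and 5948 CPM in these against 9.32 to 548 CPM in the other 30, and Lcn2, which sequesters siderophores, at 661 and 773 CPM against 1.02 to 20.1 CPM. Of 22 acute phase members, 14 were above all of the other 30 libraries in both. The 2 livers were singled out by these same transcripts, so this count describes that choice. The share of all genes with such a separation is not given here. Over the 32 libraries, 2 of the 22 had higher and 0 lower estimates on the second day at an unadjusted p under 0.05 (median +0.26). These were Saa4 (+0.26) and Orm3 (+0.97), and 4.56% of all genes were higher and 4.09% lower. Neutrophil markers summed to 6.76 CPM in CT8 female 2, whose acute phase transcripts summed to 18310 CPM. In CT36 male 1 and CT40 male 1 the neutrophil markers summed to 4.73 and 7.27 CPM, and the acute phase transcripts to 56470 and 55100 CPM. With both left out, an alternative chosen after seeing the data, Moxd1 changed by +4.03 (SE 0.554, adjusted p = 0.0265) in the fit without CT8 and CT32. In the comparison of CT32 with CT8, which holds neither library but takes its spread from all 32, leaving them out gave 40 calls, all of them among the 175.

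The day change was compared between phases and between sexes. No gene of 19208 passed for a day change that differed among the 4 phases (0% called), with 2737 at an unadjusted p under 0.05 and 282 called by DESeq2. The smallest adjusted p, 0.182, was shared by Cyp8b1, Epm2a, Gimap9, Akap12 and Ank. Cyp8b1 changed by +1.10 at CT32, −0.64 at CT36, −0.14 at CT40 and +0.40 at CT44. At CT32 Ank was also on the higher side (+0.47), and Gimap9 (−0.62) and Akap12 (−0.65) were on the lower. Epm2a, the glycogen phosphatase laforin, gave +0.64 at CT32 and between −0.21 and 0.00 at the later times. For the difference between sexes, 0 of 18836 genes passed (0% called), with 1420 at an unadjusted p under 0.05 and 24 called by DESeq2. The 5 genes with the smallest p shared an adjusted p of 0.134. Retreg1, a receptor for autophagy of the endoplasmic reticulum, had a day change 0.55 higher in females than in males (SE 0.108), Cyp39a1, an oxysterol hydroxylase, 1.04 higher (SE 0.205) and Cyp3a59 1.24 higher (SE 0.253). Snx21 was 0.61 higher, and Mettl16, the methyltransferase that modifies the methionine adenosyltransferase transcript, 0.42 lower on the log2 scale.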

How the data were processed

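Liver RNA from 32 libraries was used, 4 for each of 8 times. The authors deposited whole-number read counts per gene (78275 listed genes) with no normalization. Per the labels, reads were trimmed with Trimmomatic and aligned with HISAT2 on GRCm39; the counting program and annotation release are not given in the sources used here. A table of normalised values and a table of exon counts were not used.

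Genes low in counts were removed with filterByExpr, and libraries were scaled by TMM. The test was edgeR 4.0.16 quasi-likelihood (R 4.3.3) with Benjamini-Hochberg adjustment, called at an adjusted p under 0.05; the day effect had a mean for each phase and sex plus day, and single-phase contrasts had a mean for each time and sex. Standard errors came from the F statistic, and intervals are 95%. limma 3.58.1 and DESeq2 1.42.0 were alternatives. Levels are CPM, counts divided by the TMM-scaled library total, with a prior count of 2 on the log2 scale. For Moxd1 in livers outside the 32, CPM are by the plain total. Scripts were tested on simulated data. Each p-value rests on the spread between livers and covers no other source of error.

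The libraries and gene lists were chosen with earlier results of these data known. The named genes were up to 4 members with the smallest p in each list (clock and one-carbon members whatever their p), the 10 largest rises and falls of day (there were none), the 5 smallest p for day by phase and by sex, and the 3 largest rises and falls called at a phase, each with a mean log2 CPM of at least 1. Others were named after their values were seen. In the lists, 2 members are not reported here singly and enter only the counts and medians. Same-numbered livers of the 2 days did not deviate together (correlations of −0.066 to 0.091, 0 of 8 over 0.1), so numbers did not pair them. Within each time and sex the 2 libraries differed far beyond sampling noise (chi-square per degree of freedom of at least 14.8), so neither repeated the counts of the other. Libraries of different times were not compared in this way. No batch is given in the labels.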

Additional observations from a re-analysis of the deposited data

Results flagged for a closer look

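Sets of 4 livers of 1 time, both sexes together, were checked for total counts, Rn18s-rs5 share and 12 transcripts, 112 sets in all. In 17 of them the gap of a liver to its nearest neighbour, as a share of the range, was above Dixon's 95% critical value. The 12 transcripts include Saa1, Moxd1, Mki67, Top2a and Thy1, already named for extreme livers, so the 17 cannot be set against chance. CT8 female 2 accounted for 4: Rn18s-rs5 at 31.31% of counts against 0.792% in the next library, Mki67 at 145.8 against 11.1 CPM, Top2a at 92.63 against 5.30 CPM and Thy1 at 133.9 against 2.38 CPM. Rn18s-rs5 was also apart at CT12 (1.402%), CT20 (0.4334%), CT32 (1.383%) and CT44 (0.2264%).

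Saa1 reached 5514 CPM in a CT36 liver, with the next at 83.4 CPM, and 5948 CPM in a CT40 liver, with the next at 81.2 CPM. Moxd1 was apart at CT8 (3.365 CPM), CT12 (1.167 CPM) and CT40 (149.5 CPM). Among clock transcripts, Dbp was high in 1 liver at CT16 (21.28 CPM, next 7.86 CPM) and in 1 at CT40 (14.96 CPM, next 6.56 CPM), and Bmal1 was low in 1 liver at CT40 (15.59 CPM, next 26.5 CPM). Mki67 was low in 1 liver at CT40 (2.564 CPM, next 5.37 CPM).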

How the results depend on the processing

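The count of 0 genes for day was unchanged by RLE or upper-quartile scaling, the replicate block, leaving out CT8 female 2, and each of the 32 single-library omissions (0 to 0). It moved to 883 with no filter on low counts, 1 with limma-voom, 2 with DESeq2, 3 without CT12 and CT36 (Atox1, Wbp1 and Morc3) and 1 (Cfd) without CT8 female 2, CT36 male 1 and CT40 male 1, the last chosen after seeing the data. Without CT8 and CT32 the single call became 504 with no filter, 3 (Moxd1, Malat1 and a predicted gene) without CT36 male 1 and CT40 male 1, and 0 with at least 10 counts in every library, the replicate block, males only, females only, no sex term, all 40 fed libraries, all 80 libraries or an adjusted p under 0.01; omitting 1 library gave 0 to 2, with 0 for 13 of 24 and 2 without CT20 female 1. DESeq2 also gave 1, but a different gene, H4c17.

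For day by phase the counts were 2102 with no filter, 282 with DESeq2 and 104 over all 80 libraries, and 0 to 11 over single omissions, the 11 without CT8 female 1. For day by sex they were 527 and 24 with no filter and DESeq2, and 0 to 5, the 5 without CT20 female 2. The 175 calls of CT32 against CT8 became 1847 with no filter, 1137 with DESeq2, 23 with limma-voom, 0 with the replicate block, 29 without CT8 female 2, 40 without CT36 male 1 and CT40 male 1, 14 without all of these, 0 in males, 2 in females, 0 at an adjusted p under 0.01 and 103 at 1.5 times or more; single omissions gave 0 to 3097, and 6 of 32 stayed within 1.5 times of 175. A lone liver left in an arm was assumed to vary like the others. For CT36 against CT12 the counts were 478 with no filter, 10 with DESeq2 and 1 (Rgs16) in males, and 0 to 0 over single omissions. For CT40 against CT16 they were 278 and 1 with no filter and DESeq2, and 1 (Ppard) without CT36 male 1 and CT40 male 1, with or without CT8 female 2; single omissions gave 0 to 1, the 1 without CT40 male 1. For CT44 against CT20 they were 745 and 23 with no filter and DESeq2 and 1, a predicted gene, without CT8 female 2, without the CT36 and CT40 males, or without all of these; single omissions gave 0 to 1. Without CT8 female 2, chosen after seeing the data, the change from CT8 to CT20 gave 2992 calls in place of 3407 and that from CT32 to CT44 2779 in place of 2349. The difference in total counts ran from −715114 to 1189024 over single omissions. The causes were not tested.

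Over all settings, none of the 4538 values of named genes turned direction while called. Of these, 4232 kept a call in the same direction or, uncalled in both fits, differed from the reported value by less than its SE. A kept call was counted whatever the size of the change. Uncalled values that moved farther numbered 155, while 118 lost and 33 gained a call. Of 3570 list counts, 538 moved by over 1.5 times. With 4 livers a time, 46.4% of the genes had an interval within 1.5-fold at CT32 against CT8, so changes of that size at 1 phase were out of reach for many genes.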

Other observations

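At the CT8 and CT32 pair with CT8 female 2 left out, 1191 of 20821 genes had higher and 1373 lower estimates at an unadjusted p under 0.05 (5.72% and 6.59%). Some lists held several of these. Of 31 one-carbon enzymes 8 were higher, of 16 bile acid genes 5, of 28 urea cycle and amino acid genes 5 and of 15 histone genes 4, with 0 lower in each. Of 16 methyltransferases and demethylases 4 were lower and 0 higher. No member of these lists passed the adjusted threshold. Of 24 cholesterol synthesis genes 16 were higher and 0 lower, among them Mvd (+1.11, SE 0.358), Msmo1 (+0.93, SE 0.259), Hmgcs1 (+0.87, SE 0.270) and Sqle (+0.58, SE 0.200), and 0 passed the adjusted threshold. Of 17 heat shock and cold-inducible genes 6 were lower and 1 higher. The chaperone genes Hsph1 (−0.73, SE 0.238), Dnajb1 (−0.62, SE 0.210) and Hspa1b (−1.22, SE 0.435) were on the lower side and the cold-inducible Cirbp on the higher (+0.59, SE 0.192). The list had a median change of −0.23 at this pair and of 0.04 for day in the fit without CT8 and CT32.

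Among the 29 genes that passed in that fit, named after their values were seen, were Pfkfb3, which makes the activator of glycolysis fructose-2,6-bisphosphate (−1.59, SE 0.274, adjusted p = 0.0281), Zfp36, which destabilises inflammatory mRNAs (+1.24, SE 0.226, adjusted p = 0.0353), the kinase Pim1 (+1.05, SE 0.186) and the lipase Lipe (+0.86, SE 0.165). Pfkfb3 stood at 36.3 and 21.4 CPM in the CT8 males, 83.0 CPM in CT8 female 1 and 25.2 CPM in CT8 female 2, and at 21.8, 21.8, 12.5 and 11.8 CPM at CT32. Only CT8 female 1 lay far from the CT32 livers.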
